A study of Homo sapiens with 5 samples.

Results

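The genes described are LGALS1, LGALS3, LGALS4, LGALS8 and LGALS9, which encode 5 human galectins, and LGALS3BP, which encodes a secreted glycoprotein that galectins bind. They were taken by name: every transcript identifier that the GENCODE v44 annotation assigns to these 6 genes was found in the deposited tables and its reads were summed, which covered 86 transcripts. They are 6 of the 61220 annotated genes in the tables. The data are 5 long-read cDNA libraries of RNA from NCI-H1975 and HCC827, established human lung adenocarcinoma cell lines, with the RNAs combined by mass before library preparation. A library's name gives the NCI-H1975 part first and the HCC827 part second, so that HCC827 supplied 0% of the RNA in the 100:0 library, 25% in 75:25, 50% in 50:50, 75% in 25:75 and 100% in 0:100. Each ratio had 1 library. The labels name no treatment and no genetic change for either line, both lines were grown in the same serum-containing medium, and both RNAs were poly(A)-selected. NCI-H1975 RNA was labelled as carrying synthetic spike-in transcripts (sequins) of mix A and HCC827 RNA those of mix B. Each line contributed a single RNA preparation to the whole series, so the p-values below do not measure variation between cultures. They weigh the trend of log2 levels along the series against how far these libraries depart from a straight trend. Mixing is linear on the scale of library totals and not in log2, so such departures hold curvature as well as scatter.

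The libraries held 2932250 to 4058751 assigned reads. Sequin reads numbered 5475, 4678, 2830, 1269 and 0 from the 100:0 to the 0:100 library, falling with the NCI-H1975 share. The library labelled 0:100 thus holds none of the mix that its label gives it. Whether HCC827 RNA brought mix B into the mixed libraries was not tested. The slopes of the 6 genes described and the counts of calls, those of markers aside, are also given below without the 0:100 library. Other slopes are so given only in part. The mitochondrial share of reads went from 5.64% (100:0) to 8.85% (0:100). Every library had reads of all 6 epithelial markers, of which 5 rose with HCC827. Of the leukocyte markers PTPRC and CD3E were at 0 reads in all 5 libraries, ITGAM had 1 read in all, CD14 had at most 16, and CD68 rose from 56.6 to 94.4 CPM (CPM, counts relative to library size, is defined below). Of the 6 endothelial markers CLDN5 and TEK were at 0 throughout, and KDR had the most reads, at most 13 in any library.

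Galectins are small proteins that bind β-galactoside sugars, above all N-acetyllactosamine units on the branched glycans of glycoproteins. They are made in the cytosol, leave the cell by a route outside the classical secretory pathway, and cross-link glycoproteins at the cell surface, while inside the cell some of them mark damaged lysosomes whose sugars have become exposed. Galectin-1 (LGALS1) is a prototype galectin that pairs with itself, galectin-3 (LGALS3) is the chimera type with an added flexible tail, and galectin-4, galectin-8 and galectin-9 (LGALS4, LGALS8 and LGALS9) are tandem-repeat galectins that carry a pair of sugar-binding domains joined by a linker. In carcinomas galectin-1 and galectin-3 are the best studied members, and galectin-4 is known as a galectin of the gut epithelium.

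The sugar-binding stretch is what makes these genes a family, and its coding sequence shows the difference between single-domain and tandem-repeat members. A pair of codon patterns was searched in frame on the coding strand of the canonical coding sequence of each gene. The first pattern is a CAN codon, any codon, an AAN codon, a CCN codon and an NGN codon in a row, the second is TGG, a GGN codon, any codon and a codon that starts with GA, and N is any base, with the second starting at most 120 bases after the first. The pair was present in 13 of 19755 coding sequences (0.0658%), of which 11 were galectin family genes and the others OSBPL2 and PAPLN. Not every gene of the family was among the 13: LGALS12, LGALS13, LGALS14, LGALS16, LGALSL and CLC were not. LGALS1 and LGALS3 held 1 match each, LGALS4, LGALS8 and LGALS9 held 2 each, and LGALS3BP held none. Below, each stretch is written 5′ to 3′ on the coding strand, with the letters that match the searched codons in capitals, from GRCh38:
LGALS1, chr22:37678526-37678609, + strand, exon 3 of LGALS1-201: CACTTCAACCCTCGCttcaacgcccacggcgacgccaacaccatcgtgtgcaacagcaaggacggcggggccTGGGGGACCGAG
LGALS3, chr14:55142624-55142704, + strand, exon 5 of LGALS3-201: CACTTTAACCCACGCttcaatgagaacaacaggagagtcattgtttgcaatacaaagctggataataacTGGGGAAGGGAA
LGALS4 site 1, chr19:38808822-38808896, − strand, exon 3 of LGALS4-201: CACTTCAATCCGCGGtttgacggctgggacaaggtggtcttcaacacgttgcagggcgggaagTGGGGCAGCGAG
LGALS4 site 2, chr19:38802040-38802111, − strand, exon 9 of LGALS4-201: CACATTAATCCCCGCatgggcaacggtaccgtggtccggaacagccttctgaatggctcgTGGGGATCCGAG
LGALS8 site 1, chr1:236538937-236539011, + strand, exon 4 of LGALS8-206: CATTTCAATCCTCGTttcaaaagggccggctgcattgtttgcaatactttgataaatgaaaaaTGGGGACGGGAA
LGALS8 site 2, chr1:236544796-236544867, + strand, exon 9 of LGALS8-206: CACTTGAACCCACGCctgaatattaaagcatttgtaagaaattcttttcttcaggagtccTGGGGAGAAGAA
LGALS9 site 1, chr17:27640621-27640695, + strand, exon 3 of LGALS9-203: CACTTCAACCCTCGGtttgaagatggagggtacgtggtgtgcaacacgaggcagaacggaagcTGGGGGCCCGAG
LGALS9 site 2, chr17:27647310-27647381, + strand, exon 10 of LGALS9-203: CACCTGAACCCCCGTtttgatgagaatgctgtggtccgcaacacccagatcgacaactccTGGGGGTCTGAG

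In LGALS8 and LGALS9 the stretch between the pair of domains contains an exon that some isoforms skip, which lengthens or shortens the linker. Such an exon was not searched for in LGALS4. These exons are shown because reads of isoforms with and without them are compared below. They are written 5′ to 3′ on the coding strand of GRCh38, whole, with no letters singled out. The LGALS8 linker exon is exon 9 of 12 in LGALS8-212, has 126 bases or 42 codons, and takes the coding length from 951 bases in LGALS8-206 to 1077. The LGALS9 linker exon is exon 5 of 11 in LGALS9-203, has 96 bases or 32 codons, and takes the coding length from 969 bases in LGALS9-201 to 1065:
LGALS8 linker exon, chr1:236542915-236543040, + strand: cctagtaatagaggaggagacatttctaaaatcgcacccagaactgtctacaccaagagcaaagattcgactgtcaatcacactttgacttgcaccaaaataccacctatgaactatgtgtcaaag
LGALS9 linker exon, chr17:27643525-27643620, + strand: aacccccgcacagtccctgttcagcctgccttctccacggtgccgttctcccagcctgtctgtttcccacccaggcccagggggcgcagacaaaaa

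**Figure D1:**
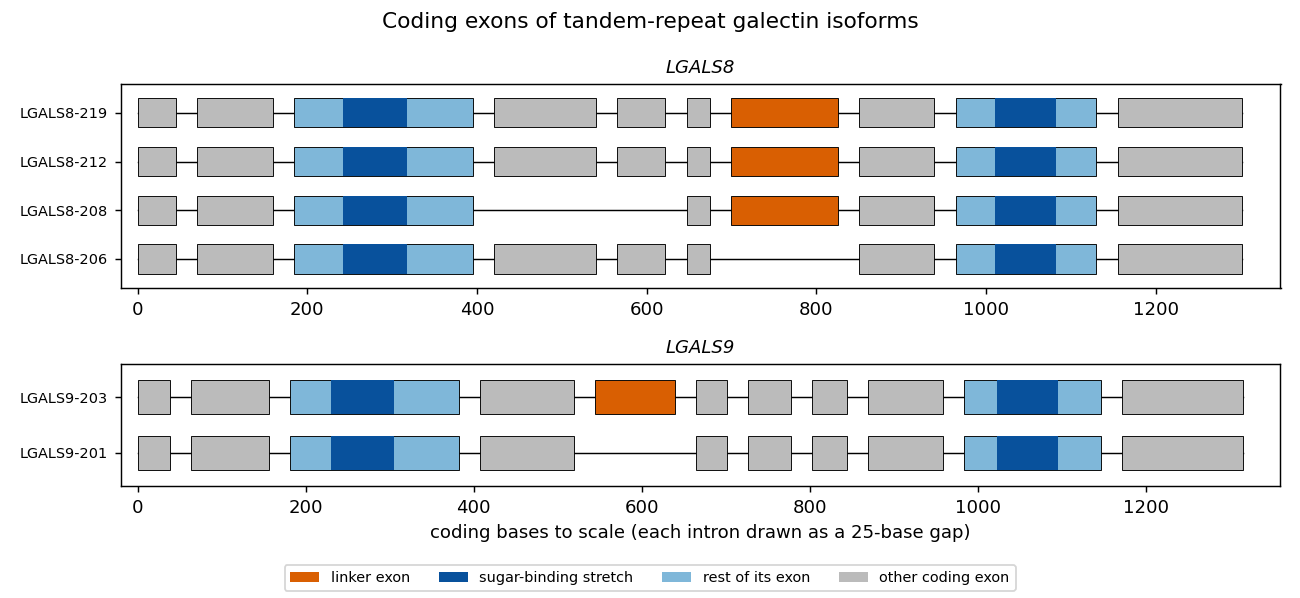
Coding exons of 4 LGALS8 isoforms and 2 LGALS9 isoforms, drawn to scale in coding bases from left to right (horizontal axis), with each intron drawn as a fixed short gap. The exons that hold the sugar-binding stretches are blue and the linker exon is orange, and the linker exon is missing from LGALS8-206 and LGALS9-201.

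Galectin-1 and galectin-3 ran in opposite directions between the lines. LGALS1 was higher in NCI-H1975 RNA and LGALS3 in HCC827 RNA, LGALS8 was modestly higher in NCI-H1975 RNA, LGALS4 was detected only in the libraries that contain HCC827 RNA, and neither LGALS3BP nor LGALS9 passed the test. Levels are given in CPM, reads per 1000000 reads of the library, after TMM scaling, a scaling that makes the bulk of genes comparable between libraries. The trend is a slope over all 5 libraries, in log2 units for the whole way between the pure libraries, with its standard error, tested with edgeR's quasi-likelihood test and Benjamini-Hochberg adjustment over all genes at a threshold of 0.05. Of the 6 genes 4 passed, of which 2 rose and 2 fell. Over all 13492 genes tested, 45.8% passed, 23.5% rising and 22.3% falling, so a call is common in this comparison and the count of 4 among 6 genes says little by itself. The median slope of the 6 genes was 0.60 and that of all tested genes was −0.035, with a median absolute slope of 0.66 over all tested genes. Without the 0:100 library 2 of the 6 genes passed, LGALS1 and LGALS3, where 30.5% of all genes passed. Because RNA was measured in bulk, fewer cells expressing a gene and less RNA per cell cannot be told apart.

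LGALS1 (ENSG00000100097.12, chr22:37675636-37679802, + strand) gave 4379, 4169, 3023, 1693 and 1089 reads from the 100:0 to the 0:100 library. After scaling these were 1290, 966, 776, 592 and 405 CPM. The level fell at every step, and no pair of neighbouring libraries had overlapping 95% counting intervals. Between the pure libraries LGALS1 was 3.19-fold higher in the 100:0 library (95% counting interval 2.98 to 3.41). The slope was −1.62 ± 0.11 (edgeR adjusted p = 2.14e-06), which lay at the 8.03rd percentile of all tested slopes. Without the 0:100 library it was −1.48 (adjusted p = 1.32e-05). The fibroblast markers COL1A1 and COL1A2, which encode the chains of type I collagen, fell in the same direction, from 532 to 19 reads and from 96 to 0 reads, and the summed level of the 6 fibroblast markers ran from 186 to 7.44 CPM. Both also fell without the 0:100 library. Of the other fibroblast markers DCN was at 0 reads in all 5 libraries, COL3A1 had 1 read in all, and LUM and PDGFRB had at most 6 in any library. The part of these markers in the result was not tested.

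LGALS3 (ENSG00000131981.16, chr14:55124110-55145423, + strand) gave 841, 1570, 1740, 1579 and 1694 reads. The scaled levels were 248, 364, 447, 552 and 630 CPM. Each library was above the one before it, again with no overlap of counting intervals between neighbours. The 0:100 library was 2.54-fold above the 100:0 library (95% counting interval 2.34 to 2.76). With a slope of 1.31 ± 0.13 (edgeR adjusted p = 1.23e-05), LGALS3 lay at the 90.3rd percentile of tested slopes. The slope without the 0:100 library was 1.49 (adjusted p = 3.62e-05). LGALS1 and LGALS3 were thus the 2 of 6 genes whose levels ran in order over the 5 libraries, a pattern that 28.5% of all tested genes had. The mitochondrial share of reads rose alongside LGALS3, and its part in the result was not tested.

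LGALS3BP (ENSG00000108679.13, chr17:78971238-78979947, − strand) encodes a secreted glycoprotein with a scavenger-receptor domain that binds galectin-1 and galectin-3. It gave 1157, 1300, 1197, 908 and 998 reads. These correspond to 341, 301, 307, 317 and 371 CPM. Both pure libraries were above all 3 mixed libraries, and the levels did not run in order. The ratio of the 0:100 to the 100:0 library was 1.09 (95% counting interval 0.999 to 1.19). Its slope of 0.13 ± 0.13 did not pass (edgeR adjusted p = 0.457). This gene's direction depended on which libraries entered: the slope was −0.12 without the 0:100 library (adjusted p = 0.591), 0.39 without the 100:0 library (adjusted p = 0.0457, a call), and −0.28 with library totals in place of TMM (adjusted p = 0.0941).

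LGALS4 (ENSG00000171747.9, chr19:38801671-38812945, − strand) gave 0, 11, 9, 11 and 21 reads. The scaled levels were 0, 2.55, 2.31, 3.84 and 7.81 CPM. No read was assigned in the library without HCC827 RNA, and a count of 0 there allows up to 3 reads or 0.884 CPM. The 0:100 level was 8.84-fold above that limit, and the exact 95% counting interval of the ratio, which covers the error of both counts, put the 0:100 library at least 6.57-fold higher. The slope was 3.22 ± 0.84 (edgeR adjusted p = 0.00711), at the 99.0th percentile of tested slopes. LGALS4 passed the filter on low counts only through libraries that contain HCC827 RNA, so a gene like it had to differ once it entered the test. Without the 0:100 library the slope was 3.13 and the call was lost (adjusted p = 0.100).

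LGALS8 (ENSG00000116977.19, chr1:236518000-236552981, + strand) encodes the galectin that marks ruptured endosomes and lysosomes. It gave 191, 195, 184, 112 and 89 reads, or 56.3, 45.2, 47.2, 39.1 and 33.1 CPM. The 100:0 library was the highest and the 0:100 library the lowest, but the levels did not run in order and the counting intervals of every pair of neighbouring libraries overlapped. The 100:0 library was 1.70-fold above the 0:100 library (95% counting interval 1.32 to 2.21). The slope of −0.68 ± 0.18 passed (edgeR adjusted p = 0.00796). It was lost without the 0:100 library (−0.60, adjusted p = 0.0755) and without the 100:0 library (−0.61, adjusted p = 0.0815), and it was −1.09 with library totals. HEATR1 overlaps LGALS8 on the opposite strand and had 401 reads to the 771 of LGALS8, and no source used here states whether counting used strand, so reads of the overlap cannot be told apart.

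LGALS9 (ENSG00000168961.17, chr17:27629798-27649560, + strand) encodes a tandem-repeat galectin known as a ligand of the immune receptor TIM-3. It gave 6, 10, 13, 15 and 8 reads. The scaled levels were 1.77, 2.32, 3.34, 5.24 and 2.97 CPM. All 5 counting intervals overlapped, and the ratio of the 0:100 to the 100:0 library was 1.68 (95% counting interval 0.512 to 5.88). The slope of 1.08 ± 0.69 did not pass (edgeR adjusted p = 0.218), and without the 0:100 library it was 2.13 (adjusted p = 0.0743). A difference of the size seen for LGALS3 was not detectable for LGALS9 at this depth.

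**Figure D2:**
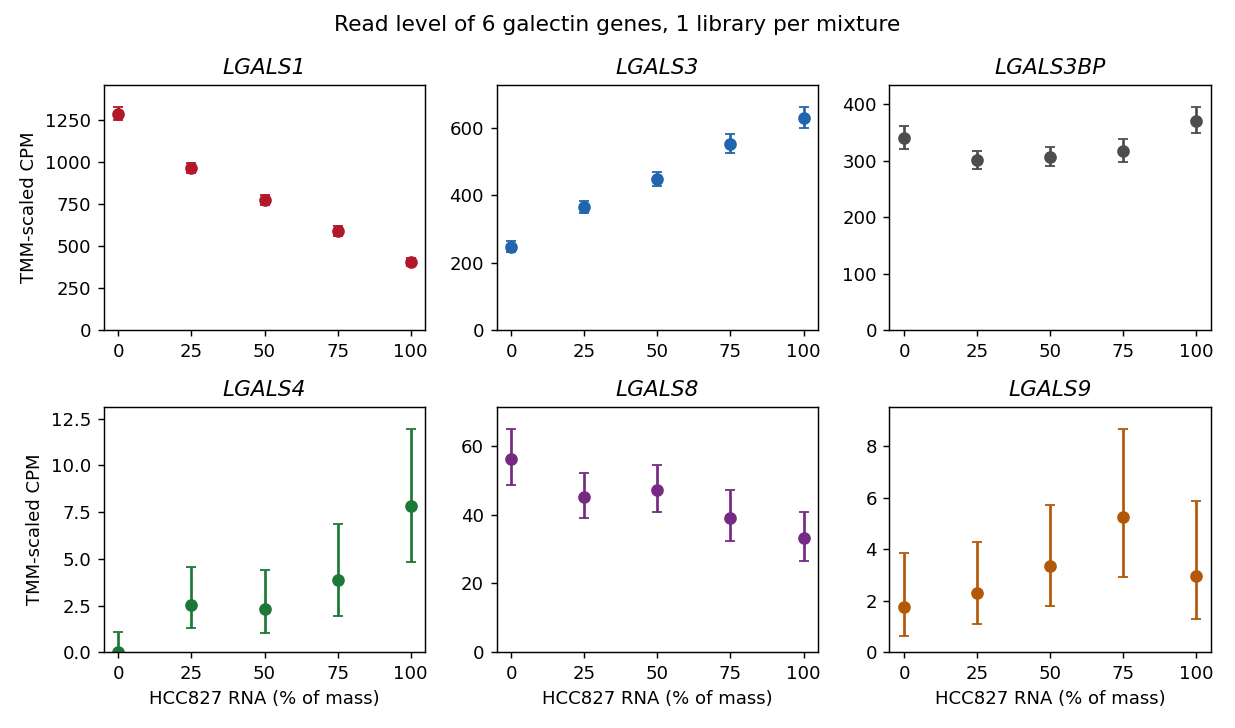
TMM-scaled CPM (vertical axes, each from 0 and each on its own range) of the 6 genes against the HCC827 share of RNA mass in percent (horizontal axes), 1 point per library with its exact 95% Poisson interval. LGALS1 falls from 1290 to 405 CPM and LGALS3 rises from 248 to 630 CPM without overlap of neighbouring intervals, while the intervals of LGALS9 overlap throughout.

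Levels of different genes were compared in CPM and per length, as CPM per kb of the transcripts to which reads were assigned. Whether counts of these long reads call for a division by length was not tested. In CPM the 100:0 library had LGALS1 at 1290, LGALS3BP at 341, LGALS3 at 248, LGALS8 at 56.3, LGALS9 at 1.77 and LGALS4 at 0. In CPM the 0:100 library had LGALS3 at 630, LGALS1 at 405, LGALS3BP at 371, LGALS8 at 33.1, LGALS4 at 7.81 and LGALS9 at 2.97. Per kb, the 100:0 level was 2349 for LGALS1, 207 for LGALS3, 168 for LGALS3BP, 16.6 for LGALS8, 0.732 for LGALS9 and 0 for LGALS4. LGALS9 and LGALS4, the lowest pair there, did not differ beyond their counting intervals. In the 0:100 library the order per kb was LGALS1 at 741, LGALS3 at 527, LGALS3BP at 184, LGALS4 at 9.65, LGALS8 at 9.09 and LGALS9 at 1.52. The order in both pure libraries thus depends on the division by length. In CPM, LGALS3BP was above LGALS3 in the 100:0 library. In the 0:100 library LGALS3 at 630 CPM was above LGALS1 at 405, and LGALS8 at 33.1 was above LGALS4 at 7.81. Per kb, the gap between LGALS4 and LGALS8 was smaller than the counting interval of LGALS4, which reached from 4.83 to 11.9 CPM around its 7.81 CPM. The 6 genes together took 6574, 7255, 6166, 4318 and 3899 reads, or 0.224, 0.179, 0.159, 0.140 and 0.126% of the libraries in order.

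The mixtures allow a second reading of the same values: how far each mixed library lies on the way from the 100:0 to the 0:100 level, on the scale of library totals, where mixing is linear. LGALS1 stood at 40.9 ± 1.86% of the way in the library with 25% HCC827 RNA, at 62.6 ± 1.56% with 50%, and at 82.6 ± 1.44% with 75% (standard errors from counting error alone). LGALS3 stood at 38.3 ± 4.83%, 62.0 ± 5.39% and 86.8 ± 6.66%. Both genes were ahead of the mass share in all 3 mixed libraries, although they run in opposite directions. The median of 1477 genes, at least 2-fold apart in the pure libraries with at least 500 reads, was 32.1, 54.5 and 77.1%. These medians are also ahead of the mass share. LGALS1 lay above them by several of its standard errors, and LGALS3 by little more than its own. The spread of the 1477 genes was not computed. The 3 positions of a gene share both end libraries, so they are not independent. LGALS8 stood at 47.0 ± 12.3%, 48.7 ± 12.4% and 79.0 ± 11.9%, where the counting error is too wide to place it. Without the 0:100 library no such position can be computed, since that library is an end point.

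**Figure D3:**
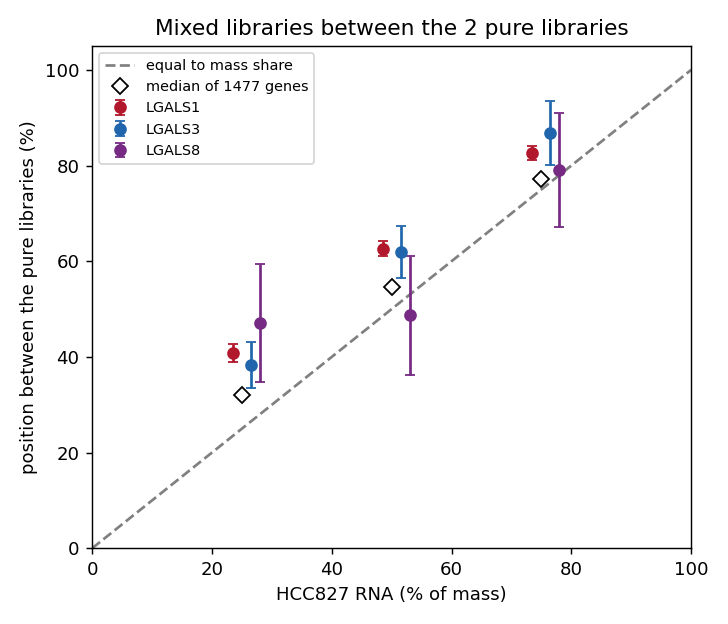
Position of each mixed library between the 100:0 level (0%) and the 0:100 level (100%) on the vertical axis against the HCC827 share of RNA mass in percent on the horizontal axis. Filled points are LGALS1, LGALS3 and LGALS8 with standard errors from counting, shifted slightly sideways so that they do not overlap. Open diamonds are the median of 1477 genes, and the dashed line marks equality with the mass share: LGALS1 and LGALS3 lie above it in all 3 mixed libraries.

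Long reads were assigned to annotated isoforms, so the same trend was tested per transcript. Of the 86 transcripts 51 had reads and 13 passed the read filter, in 4 of the genes. Among those 13, 6 passed the slope test, 2 rising and 4 falling, where 33.6% of the 31758 transcripts tested passed. The same 6 transcripts passed in the same direction without the 0:100 library. All 6 belonged to LGALS1 or LGALS3, and each ran in the direction of its gene.

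The 4 tested LGALS1 transcripts all fell. LGALS1-201, the protein-coding isoform, held 36.3% of the gene's reads and had a slope of −1.53 ± 0.16. LGALS1-202, annotated as a target of nonsense-mediated decay, held 21.8% with a slope of −1.83 ± 0.15. The others were LGALS1-205, a retained-intron transcript with 20.2% of reads and a slope of −1.76 ± 0.14, and LGALS1-207, annotated without a coding sequence, with 21.6% and a slope of −1.65 ± 0.15. Transcripts not annotated as protein-coding thus received 63.7% of LGALS1 reads. They are short and overlap LGALS1-201 over most of their length: 507 of 637 bases in LGALS1-202, 439 of 546 in LGALS1-205 and 452 of 516 in LGALS1-207 are shared with it, so these shares rest on how the quantifier divided reads among them.

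LGALS3 reads fell on 2 transcripts. LGALS3-201, the protein-coding isoform, held 55.1% of reads and rose with a slope of 1.29 ± 0.15. LGALS3-207, a retained-intron transcript that shares 899 of its 1734 bases with LGALS3-201, held 44.5% and rose with a slope of 1.21 ± 0.15. LGALS3BP reads fell mainly on LGALS3BP-218 with 55.3% and a slope of 0.13, on LGALS3BP-201 with 35.5% and a slope of −0.016, and on LGALS3BP-207, a nonsense-mediated decay target, with 8.69% and a slope of 0.067. None of these 3 passed the test. Without the 0:100 library their slopes were −0.18, −0.10 and −0.10 in the same order.

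No LGALS8 transcript passed on its own, although the gene did. LGALS8-219 held 25.6% of the reads with a slope of −0.72 (edgeR adjusted p = 0.0947), and LGALS8-212 held 20.5% with a slope of −0.88 (adjusted p = 0.0559). LGALS8-208 held 19.7% with a slope of −0.70 (adjusted p = 0.216), and LGALS8-206 held 16.5% with a slope of −0.54 (adjusted p = 0.314). All 4 slopes were negative, as for the gene, and none of the 4 passed without the 0:100 library either. LGALS8-206 is 4369 bases long in the deposited tables and 5957 in GENCODE v44, while the lengths of the other 85 of 86 transcripts are the same in both. LGALS4 reads fell on LGALS4-204, a nonsense-mediated decay target, with 28 reads and on the protein-coding LGALS4-201 with 22. LGALS9 reads fell on LGALS9-201 with 21, LGALS9-203 with 20 and the transcript LGALS9-206, which has no annotated coding sequence, with 10, and none of these reached the filter.

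Isoform usage, meaning the share of a gene's reads that each of its transcripts takes, was tested for the 4 genes with at least 2 tested transcripts. None of LGALS1, LGALS3, LGALS3BP and LGALS8 passed the test of usage along the series (edgeR diffSpliceDGE with the Simes method, adjusted p = 1.00 for each). Of the 4 genes 0 had an unadjusted Simes value under 0.05. The gene-level F test of the same edgeR fit gave adjusted p = 0.961, 0.963, 0.972 and 0.981, and no usage call was made without the 0:100 library. Over all 7455 genes tested 0.402% were called. Fitted usage changes of the tested transcripts lay between −0.11 and 0.13 on the log2 scale. The share of LGALS1-201 stayed between 35.1 and 41.8% of LGALS1 reads over the 5 libraries, and that of LGALS3-201 between 53.1 and 56.2% of LGALS3 reads. On simulated data this usage test recovered 19 of 100 genes given a 4-fold switch. Those genes were drawn at random whatever their read depth, so this rate need not hold for LGALS1 or LGALS3. The division of reads among overlapping isoforms was not simulated, so an undetected switch in the 4 genes remains possible.

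**Figure D4:**
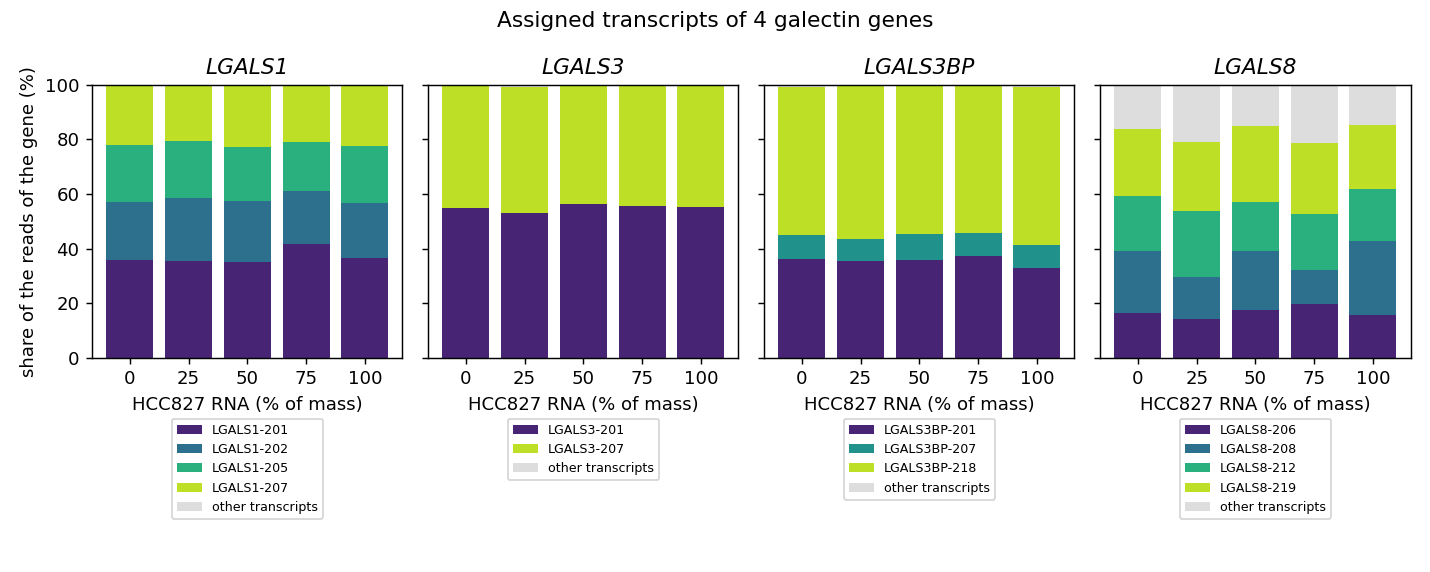
Stacked bars give the share of a gene's assigned reads in percent (vertical axis) by transcript, for each library by its HCC827 share of RNA mass in percent (horizontal axis), for LGALS1, LGALS3, LGALS3BP and LGALS8. The bars of LGALS1 and LGALS3 keep nearly the same proportions across the 5 libraries, with LGALS3-201 between 53.1 and 56.2%.

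The linker exons printed above were followed by summing the reads of protein-coding transcripts whose ends lie on either side of the exon. Transcripts that contain the exon were set against those that do not. Whether the latter join its flanking exons was not checked. For LGALS8, 134 of 178 such reads in the 100:0 library were on transcripts with the linker exon, which is 75.3% (95% Wilson interval 68.5 to 81.0). The share was 70.4% (126 of 179), 74.0% (131 of 177) and 67.3% (72 of 107) in the mixed libraries. In the 0:100 library it was 79.8% (67 of 84, interval 70.0 to 87.0). The intervals of the pure libraries overlapped, and the share over all 5 libraries was 73.1% (530 of 725). Of the transcripts that passed the read filter, LGALS8-208, LGALS8-212 and LGALS8-219 contain the exon and LGALS8-206 does not. LGALS8-206 held 127 of the 195 reads without the exon. Its length in the deposited tables is 4369 bases, against 5957 in GENCODE v44, and whether that bears on the share was not tested. The linker exon of LGALS8-212 and LGALS8-219 lies 5225 bases from the 3′ end of the transcript, farther than the 2 kb that the labels give as the size target of the libraries. The tables hold assigned reads and no alignments, so how many of these reads crossed the exon was not tested. The share therefore depends on how the quantifier divided reads among transcripts, and it does not show which linker form leads in either line.

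For LGALS9, 2 of 6 such reads in the 100:0 library and 5 of 6 in the 0:100 library were on transcripts with the linker exon. The mixed libraries had 3 of 7, 4 of 11 and 6 of 11. Over all libraries the share was 48.8% (20 of 41, 95% Wilson interval 34.3 to 63.5). The interval was 9.68 to 70.0% in the 100:0 library and 43.6 to 97.0% in the 0:100 library, so a difference in linker use was not detectable at this depth. The exon lies 1106 bases from the 3′ end in LGALS9-203.

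Of 12 other genes of the galectin family, 7 had reads, and LGALS13, LGALS14, LGALS16, CLC and GRIFIN had none in any library. The read filter left 3 of them, and all 3 passed the slope test, as 45.8% of all tested genes did, of which 2 rose and 1 fell. LGALS7B, whose product galectin-7 is a galectin of stratified epithelia, had 0, 7, 12, 13 and 18 reads and a slope of 3.43 ± 0.82 (edgeR adjusted p = 0.00437). LGALS12, known from fat cells, had 0, 19, 20, 28 and 23 reads and a slope of 2.67 ± 0.80 (adjusted p = 0.0153). LGALSL, which encodes a galectin-related protein, had 41, 44, 32, 27 and 9 reads and a slope of −1.24 ± 0.44 (adjusted p = 0.0355). Both rising genes entered the test only through libraries with HCC827 RNA, as LGALS4 did, and relative to the limit of 3 reads in the 100:0 library the 0:100 level was 7.57-fold higher for LGALS7B and 9.68-fold higher for LGALS12. With the error of both counts covered, the exact 95% intervals put the 0:100 library at least 5.55-fold and at least 7.26-fold higher. Without the 0:100 library the count was 2, both rising, since LGALSL fell out (−0.60, adjusted p = 0.375). Over all tested genes that fit called 30.5%. LGALSL was also lost without the 100:0, 75:25 or 50:50 library (adjusted p from 0.0526 to 0.0782), and LGALS12 without the 100:0 library (slope 1.52, adjusted p = 0.0705) or the 25:75 library (slope 2.50, adjusted p = 0.0660).

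LGALS7B and LGALS7 are near-identical: 92.3% of the 31-base words of LGALS7B-201 also occur in LGALS7, so reads cannot be divided between them with confidence. Summed, the pair had 0, 11, 14, 21 and 19 reads. LGALS9 has near copies too, since LGALS9-203 shares 24.7% of its words with LGALS9B and 29.6% with LGALS9C, but those copies received only 1 and 2 reads in all. LGALS2 had 2, 4, 5, 2 and 3 reads and did not enter the test.

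LGALS4 and the LGALS7 pair lie in the same stretch of chromosome 19, with LGALS7B 9917 bases and LGALS7 28154 bases from LGALS4. The neighbours of LGALS4 within 100 kb on either side were therefore listed, after its values had been seen. Of 17 annotated genes in that window 15 had reads and 8 were tested, LGALS4 and LGALS7B among them, and all 8 rose. LGALS4 defined the window, and LGALS4 and LGALS7B entered the test only through libraries with HCC827 RNA. The direction of these genes was thus set in advance, and the count of 8 cannot be weighed against the 23.5% of all tested genes that rose. Without the 0:100 library 6 of the 8 rose, and LGALS4 and NFKBIB (0.89, adjusted p = 0.0971) did not pass. The nearest expressed neighbour, ECH1, which encodes a mitochondrial and peroxisomal enzyme of fatty acid oxidation, lies 2477 bases away and had 16, 253, 438, 562 and 618 reads with a slope of 3.79 ± 0.54 (edgeR adjusted p = 1.13e-04). The other 5 were ACTN4 (slope 0.94), CAPN12 (0.85), HNRNPL (0.78), SIRT2 (0.70) and NFKBIB (0.96). Neighbouring genes are not independent, and no test was made of the window as a whole.

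The sugars that galectins read are built by other enzymes, and those genes were described as lists. The list of enzymes that extend N-acetyllactosamine chains and branch glycans had 26 genes, of which 23 were tested, 4 rose and 6 fell (median slope −0.23). The 10 calls are 43.5% of those tested, near the 45.8% over all tested genes. B3GNT3, which adds N-acetylglucosamine in chain extension, rose from 9.43 CPM in the 100:0 library to 80.3 CPM in the 0:100 library (slope 2.74 ± 0.25, edgeR adjusted p = 6.04e-06). GCNT3, a branching enzyme of mucin-type glycans, rose from 3.24 to 17.1 CPM (slope 2.41 ± 0.40, adjusted p = 3.35e-04). B4GALT6, a galactosyltransferase that acts on glycolipids, fell from 19 reads to 1 (slope −2.70 ± 0.80, adjusted p = 0.0144), and GCNT1, which makes the core branch of mucin-type glycans, fell from 44 reads to 11 (slope −1.64 ± 0.49, adjusted p = 0.0149). MGAT5, whose branched products are high-affinity galectin-3 ligands, had a slope of −0.28 ± 0.27 and did not pass (adjusted p = 0.420). With library totals the split was 4 rising and 11 falling, and without the 0:100 library it was 4 and 2, with B4GALT6 (adjusted p = 0.105) and GCNT1 (adjusted p = 0.141) lost. B4GALT6 was also lost without the 25:75 library (adjusted p = 0.0560). B3GNT3 (3.18) and GCNT3 (3.13) passed without the 0:100 library, where 30.5% of all tested genes were called.

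Sialic acid and fucose added to the chain ends change which galectins can bind. Of 18 genes listed as capping enzymes 11 were tested, and 4 rose and 5 fell (median slope −0.58). The list was drawn by enzyme family, and FUT8 and FUT11, both among those that fell, are not known to act at chain ends. The counts thus describe the list and not chain-end capping alone. The 9 calls are 81.8% of those tested, beside 45.8% over all tested genes. ST6GAL1, whose product adds the sialic acid linkage that blocks galectin-1, rose from 17.1 to 72.5 CPM (slope 1.65 ± 0.26, edgeR adjusted p = 2.35e-04), opposite in direction to LGALS1. ST3GAL5, which makes the ganglioside GM3, rose from 1.77 to 20.5 CPM (slope 2.89 ± 0.48, adjusted p = 3.34e-04). FUT11, a fucosyltransferase family member, fell from 25.6 to 2.23 CPM (slope −2.33 ± 0.42, adjusted p = 6.13e-04), and ST3GAL1, which caps mucin-type core glycans, fell from 21.2 to 4.46 CPM (slope −2.14 ± 0.32, adjusted p = 1.78e-04). Library totals gave 2 rising and 5 falling, and the fit without the 0:100 library gave 3 and 2, with ST6GAL1 (1.79), ST3GAL5 (3.28), FUT11 (−1.63) and ST3GAL1 (−1.98) all still called. Without the 0:100 library 30.5% of all tested genes were called.

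Glycoproteins described as galectin ligands or counter-receptors were called in both directions: of 32 listed genes 28 were tested, 9 rose and 13 fell (median slope −0.20). The 22 calls are 78.6% of those tested, beside 45.8% over all tested genes, of which 23.5% rose and 22.3% fell. EGFR, the growth factor receptor whose surface residence galectin-3 lattices prolong, rose from 92.8 to 960 CPM (slope 2.96 ± 0.38, edgeR adjusted p = 4.95e-05). CEACAM5, the carcinoembryonic antigen, rose from 0 to 130 reads (slope 3.13 ± 0.64, adjusted p = 0.00156). It entered the test only through libraries with HCC827 RNA, and the DESeq2 Wald test did not call it (adjusted p = 0.153). CD82, a tetraspanin, fell from 116 to 17.8 CPM (slope −2.49 ± 0.20, adjusted p = 3.16e-06), and LAMP3, a lysosomal membrane glycoprotein, fell from 33 reads to 3 (slope −2.26 ± 0.62, adjusted p = 0.00955). LAMP1, a major carrier of N-acetyllactosamine chains, had a slope of −0.092 ± 0.12 and did not pass (adjusted p = 0.557). The split was 7 rising and 17 falling with library totals, and 8 and 11 without the 0:100 library, where LAMP3 was lost (−1.66, adjusted p = 0.0982) and EGFR (3.67), CEACAM5 (4.21) and CD82 (−2.16) passed. Over all tested genes 30.5% were called without the 0:100 library. Without the 100:0 library the slopes of EGFR and CEACAM5 were 1.96 and 2.00, and both passed with edgeR.

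The 15 partners of galectins at damaged lysosomes were all tested, and 2 rose and 4 fell (median slope −0.20), or 40.0% called beside 45.8% over all tested genes. CHMP4B, of the ESCRT membrane repair machinery, rose from 143 to 282 CPM (slope 0.99 ± 0.13, edgeR adjusted p = 5.47e-05), and SQSTM1, an autophagy receptor, from 1971 to 2716 CPM (slope 0.35 ± 0.12, adjusted p = 0.0270), though its slope was −0.054 with library totals. The SQSTM1 call was lost when any library but 25:75 was left out, at 0.17 (adjusted p = 0.400) without the 0:100 library and at an adjusted p of 0.0513 to 0.0600 without each of the others. OPTN and TAX1BP1, also autophagy receptors, fell from 87.8 to 18.6 CPM (slope −1.85 ± 0.25, adjusted p = 6.60e-05) and from 371 to 153 CPM (slope −1.20 ± 0.12, adjusted p = 1.23e-05). CALCOCO2, the receptor that galectin-8 recruits, had a slope of 0.11 ± 0.21 and did not pass (adjusted p = 0.692). Library totals gave 1 rising and 6 falling, and the fit without the 0:100 library 1 and 3, with CHMP4B (1.16), OPTN (−1.32) and TAX1BP1 (−1.06) still called. Over all tested genes library totals gave 1813 rising and 5074 falling calls, against 3169 and 3006 with TMM, and moved the median slope by −0.41. The fit without the 0:100 library called 30.5% of all tested genes.

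**Figure D5:**
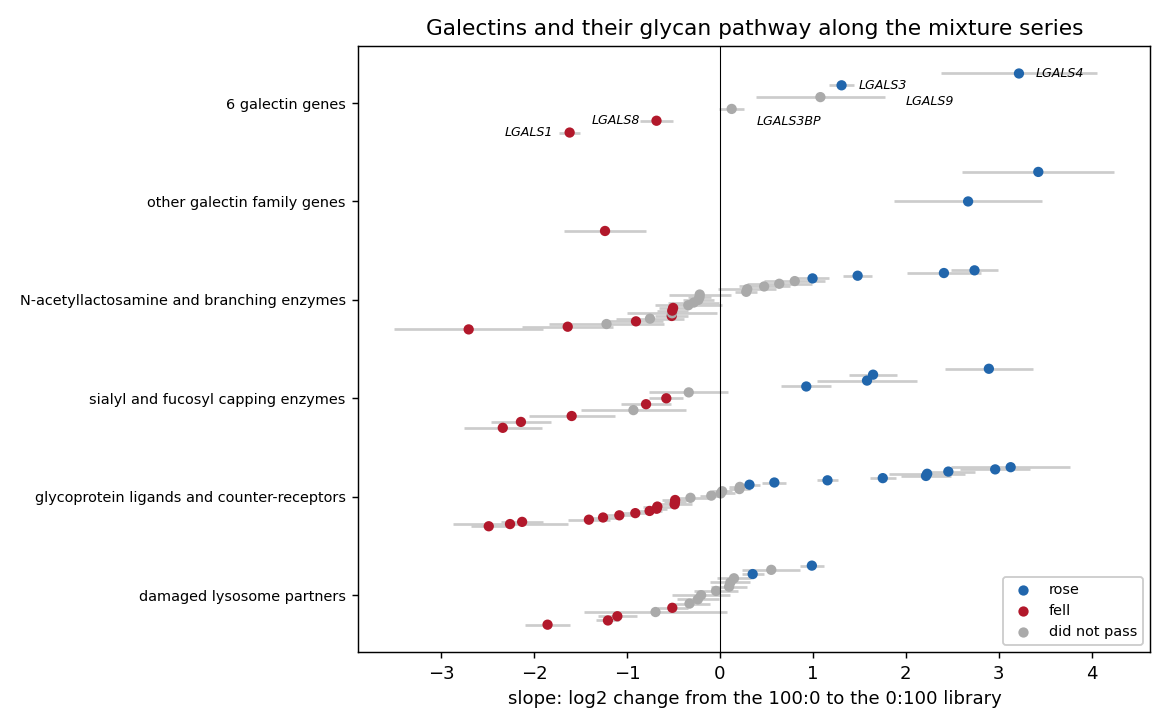
Slope of every tested gene in 6 lists on the horizontal axis (log2 change over the whole mixture series, with its standard error as a grey line), by list on the vertical axis and sorted by slope within a list. Blue points rose, red points fell and grey points did not pass the test: among the 6 genes described here LGALS4 and LGALS3 rose and LGALS1 and LGALS8 fell.

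The genes whose profile over the 5 libraries was nearest to each of the 6 were found by the root mean square difference of centred log2 levels, among 5289 tested genes with at least 500 reads. TUBB6 at 0.037 was among them for LGALS1, and for LGALS3 they were GPRC5A at 0.024 and the mitochondrial MT-CO2 at 0.025. CHD8 at 0.026 and PDE4A at 0.028 were nearest to LGALS3BP, and SOAT1 at 0.023 and ZDHHC3 at 0.030 to LGALS8. Distances were larger for LGALS4 and LGALS9, the members with the fewest reads, at 0.23 for RPL13P5 and 0.25 for CASC8 from LGALS4, and at 0.12 for ESD and 0.17 for MRPS28 from LGALS9. In a mixture of 2 RNAs, genes with a similar ratio between the pure RNAs have a similar profile, so these distances describe that ratio and the scatter of the 5 libraries. They use all 5 libraries and were not computed without the 0:100 library.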

How the data were processed

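Per the labels' protocols, poly(A) RNA of NCI-H1975 and HCC827 was mixed by mass and turned into barcoded PCR cDNA libraries (16 cycles) for a PromethION flow cell. The authors deposited 1 table per library with estimated counts of reads per transcript, unscaled and whole in all but 2 values of the 100:0 library, which were rounded. Per the submitters' processing notes, minimap2 2.24, Salmon 1.9.0 and GRCh38 were used. The annotation release and the use of strand are not given in the sources used here. Counts of 161 repeated identifiers were summed. Of 227751 human transcripts 224076, with 98.6% of human reads, matched GENCODE v44 (GRCh38), which supplied genes, exons and sequences, and the 3675 others entered library totals and transcript tests but no gene sum.

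Log2 expression was regressed on the mass fraction of HCC827 RNA over 5 libraries with edgeR 4.0.16 in R 4.3.3 (TMM, at least 10 reads in at least 2 libraries, quasi-likelihood test, Benjamini-Hochberg threshold 0.05). Standard errors of slopes were derived from the slopes and their F statistics. Isoform usage was tested with diffSpliceDGE. The common biological coefficient of variation was 9.11%. No ratio was replicated, so groups were not tested against each other. Counting intervals (exact Poisson for CPM, Wilson for shares) and the limit of 3 reads for a count of 0 cover counting error only, since PCR copies were not marked. Simulated with 50 genes changed at each fold among 13492, the gene slope test recovered 4 at 1.5-fold, 23 at 2-fold, 39 at 4-fold and 49 at 8-fold, with 7 false calls. For transcripts (31107 simulated) it recovered 0, 12, 35 and 33 of 50, with 4 false calls.

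The 6 genes and all lists were chosen with earlier results of these data known. Named were all 6 genes, their transcripts with at least 5% of reads or a call, the 2 largest called slopes in each direction of each list, and the 2 nearest profiles of each gene. A gene chosen by the profile rule and a leukocyte marker are not reported here. MGAT5, LAMP1, CALCOCO2, LGALS2, LGALS7 and the chromosome 19 neighbours were named outside this rule, after their values were seen. Of the marker lists, 5 of 6 epithelial markers rose, 1 of 2 tested leukocyte markers (CD68) rose, 2 of 2 tested fibroblast markers fell, and 0 of 1 tested endothelial marker passed by edgeR, at an unadjusted p of 0.480 for KDR. Alternatives were other scalings and filters, DESeq2 1.42.0, limma-voom 3.58.1 and leaving out each library.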

Additional observations from a re-analysis of the deposited data

How the results depend on the processing

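Leaving out each library in turn gave 2 to 4 calls among the 6 genes (2 without the 0:100 library), 1 to 2 among the other galectin family genes (1 without the 100:0 library), 6 to 10 among the N-acetyllactosamine and branching enzymes (6 without the 25:75 or the 0:100 library), 5 to 9 among the capping enzymes (5 without the 0:100 library), 19 to 21 among the ligands and 4 to 6 among the damaged lysosome partners (4 without the 100:0 or the 0:100 library). The other galectin family genes had 1 call with the DESeq2 Wald test and 0 by edgeR when at least 10 reads were asked in every library, where LGALS7B, LGALS12 and LGALSL were not tested. The DESeq2 Wald test gave 6 calls among the N-acetyllactosamine and branching enzymes, and it called 35.5% of all tested genes. The LGALS3BP slope turned to −0.28 with library totals and ranged from −0.12 to 0.39 over the libraries left out. The log2 ratio of the 0:100 to the 100:0 library moved from −1.67 to −2.08 with library totals and to −2.03 with mitochondrial transcripts left out of the totals for LGALS1, and from 1.35 to 0.93 and 0.98 for LGALS3. The causes of these shifts were not tested.

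The slopes of LGALS1, LGALS3, LGALS4, LGALS8 and LGALS9 kept their sign in all alternatives that gave a value, and over the libraries left out they ranged from −1.65 to −1.48, 1.08 to 1.49, 2.35 to 4.63, −0.76 to −0.60 and 0.71 to 2.13. Galectin transcript calls numbered 6 to 8 and isoform usage calls 0 under every alternative run. Depth limits LGALS4 and LGALS9, with 52 reads each over all libraries. No paired analysis was possible because each ratio had 1 library and so the groups share only a single replicate number.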
